A study of Mus musculus with 2 samples.

Results

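The Rab GTPases are described here through 43 mouse genes, taken from both gene tables by a rule that reads gene identifiers and no measured value, out of 43346 genes listed. The study sequenced 2 poly(A) libraries of brain RNA from a single 10-week-old mouse, an adult male of the inbred strain C57BL/6J. Both are labelled technical replicates (2 and 1) of biological replicate 1, and RNA was taken with the RNeasy Lipid Tissue Mini Kit, a kit for lipid-rich tissue. Replicate 2 was made later and, per the labels, was not part of the publication they name. The labels name no treatment and no mutant allele, so the only comparison is replicate 2 against replicate 1, and its spread holds no difference between animals.

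Rab proteins are small GTPases of the Ras superfamily that give membranes their identity and steer vesicle budding, transport, tethering and fusion. Guanine nucleotide exchange factors (GEFs) load a Rab with GTP, the bound form recruits effectors, GTPase-activating proteins (GAPs) trigger hydrolysis, and the GDP dissociation inhibitor (GDI) carries the inactive, prenylated protein through the cytosol. In neurons, Rab3 proteins sit on synaptic vesicles, while Rab5, Rab7 and Rab11 act in endosomes of axons and dendrites.

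Both libraries carried brain transcripts. Snap25, a neuronal membrane fusion protein, had a TPM (a transcript level divided by length, with one common total in both libraries) of 2764 in replicate 2 and 3457 in replicate 1. The astrocyte glutamate transporter gene Slc1a2 had 346.1 TPM in replicate 2 and 396.7 TPM in replicate 1, but the levels of other markers differed more. The depth was 17828479 counts in replicate 2 and 18302506 counts in replicate 1, and 14780 genes in replicate 2 and 11608 genes in replicate 1 reached a TPM of 1. The genes of the mitochondrial genome took 17.0% of TPM in replicate 2 and 37.8% in replicate 1, and since TPM shares a fixed total this bears on the TPM of the other genes. In bulk tissue, fewer cells of a type and less RNA per cell cannot be told apart. By the test described below, all 3 erythroid, both liver and 2 of 5 neuron, 2 of 4 astrocyte, 1 of 4 oligodendrocyte, 2 of 4 microglia and 2 of 3 endothelial markers were higher in replicate 2, and 1 neuron, 2 astrocyte, 1 oligodendrocyte and 1 microglia marker were lower. The shares over all genes tested were 34.5% higher and 24% lower, or 43.6% and 7.9% with library totals. With library totals, 0 of these markers were called lower. After removal of a trend on GC content, also described below, 2 erythroid, 1 liver, 1 microglia and 1 endothelial marker were higher. On that scale 1 neuron and 2 oligodendrocyte markers were lower, and 10.4% of all genes were higher and 9.25% lower. The summed TPM of 5 neuron markers was 4189 in replicate 2 and 4179 in replicate 1, a sum made mostly of Snap25. Within it, Slc17a7, a vesicular glutamate transporter, had 466.2 TPM in replicate 2 and 25.5 TPM in replicate 1, and Rbfox3, a neuronal splicing factor, had 130.5 TPM in replicate 2 and 14.7 TPM in replicate 1. With the GC trend removed, Slc17a7 was not called and Rbfox3 was called lower, at log2 count ratios of -0.69 and -1.57. For 4 astrocyte markers the sum was 1526 TPM in replicate 2 and 681 TPM in replicate 1, and for 3 endothelial markers 79.2 TPM in replicate 2 and 15.1 TPM in replicate 1. Aldoc held 1022 TPM of the astrocyte sum in replicate 2 and 199.3 TPM in replicate 1, while Slc1a2 and Aqp4 were called lower. For 4 microglia markers the sum was 167.5 TPM in replicate 2 and 64.0 TPM in replicate 1. For 3 erythroid markers it was 947.8 TPM in replicate 2 and 46.6 TPM in replicate 1. Markers of tissues next to the brain or foreign to it were low: the pituitary gene Gh had 0 counts in both libraries and Pomc 19 counts in replicate 2 and 0 in replicate 1, the liver gene Alb had 105 counts in replicate 2, against 3 in replicate 1, and the muscle gene Acta1 had 129 in replicate 2, against 1 in replicate 1. Pomc, Alb and Acta1 were called higher, and with the GC trend removed Alb and Acta1 kept this call and Pomc did not. The part of these marker differences in the Rab values was not tested.

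The Rab mRNAs were abundant in both libraries, but their order differed. The 43 genes summed to 4103 TPM in replicate 2 and 3028 TPM in replicate 1, which is 0.494% of TPM outside the mitochondrial genome in replicate 2 and 0.487% in replicate 1. The median Rab gene had 55.1 TPM in replicate 2 and 17.5 TPM in replicate 1. All 43 members reached 1 TPM in replicate 2, against 41 in replicate 1, where Rab3d and Rab13 fell short of it. Levels of 100 TPM or more were reached by 14 members in replicate 2 and 10 in replicate 1. Exons of 16 members, Rab3a, Rab6a, Rab7 and Rab11b among them, overlap those of another gene. The expected counts were whole in both libraries for 40 of 43 members. The other 3 were Rab11b, Rab5b and Rab8b, and only Rab11b of these has such an overlap. Whether reads of an overlapping pair were divided between its genes was not tested.

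The highest Rab mRNA in replicate 2 was Rab3a, at 631.6 TPM, followed by Rab6a, Rab6b, Rab7 and Rab2a. In replicate 1 the highest was Rab6a, at 565.5 TPM, followed by Rab2a, Rab1a, Rab11a and Rab14. The leading 5 held 43.0% of all Rab TPM in replicate 2 and 53.4% in replicate 1. Of the 10 highest members in each library, 6 were shared, namely Rab6a, Rab2a, Rab1a, Rab11a, Rab14 and Rab7. Rab3a, Rab6b, Rab11b and Rab15 were among the 10 highest in replicate 2 but not in replicate 1, and Rab18, Rab5a, Rab3c and Rab10 in replicate 1 but not in replicate 2. The deposited lower and upper bounds of TPM overlapped in 30 of 42 pairs of neighbours in the order of replicate 2 and in 27 of 42 in that of replicate 1. In replicate 2, Rab3a stood clear of Rab6a, and Rab6a of Rab6b, while Rab6b and Rab7 overlapped. In replicate 1, Rab6a stood clear of Rab2a, while Rab2a and Rab1a overlapped. These bounds, whose level is unstated in the sources used here, describe the estimate within 1 library. They need not hold the TPM itself: Rab3a in replicate 2 had 631.6 TPM with bounds of 569.7 to 596.3, and Rab6a 343.4 TPM with bounds of 310.4 to 323.4.

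**Figure D1:**
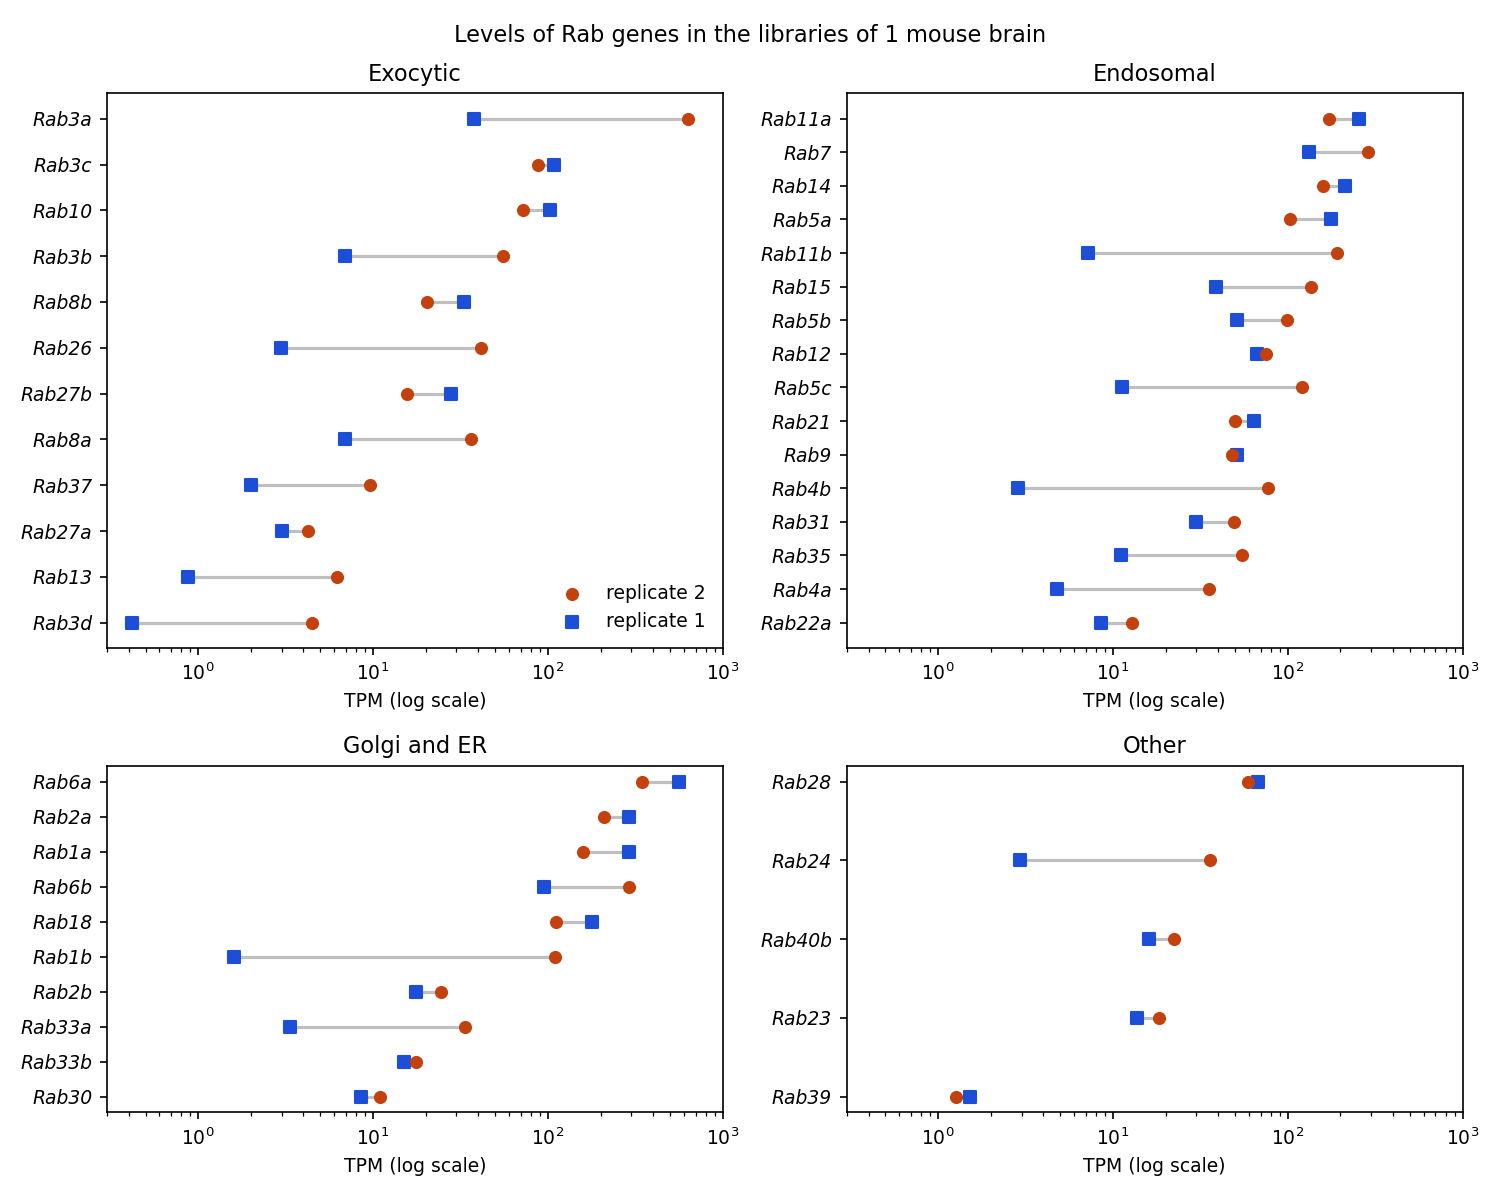
TPM (log axis) of each of the 43 Rab genes in replicate 2 (circles) and replicate 1 (squares), in panels by function and in the order of mean TPM, with a grey line joining the libraries. Rab1b, Rab11b, Rab4b and Rab3a have the longest lines, with replicate 2 far to the right, while Rab6a, Rab2a, Rab1a and Rab11a lie further right in replicate 1.

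Each gene was called different where a two-sided exact binomial test of its counts, scaled by TMM (trimmed mean of M-values), gave a Benjamini-Hochberg adjusted p under 0.05 over 16320 genes and the counts differed at least 2-fold. The test compares these libraries and has no replicate check. Of the 43 members, 15 were called higher in replicate 2 (34.9%, against 34.5% of all genes tested) and 15 were called lower (34.9%, against 24% of all genes). The 30 called members are 69.8%, against 58.5% of all genes in either direction. With counts scaled by library totals, 17 members (39.5%) were called higher, against 43.6% of all genes, and 6 (14%) were called lower, against 7.9%; over all genes 51.5% were called either way. By TPM alone, 18 members (41.9%) stood at least 2-fold higher in replicate 2, against 51% of all genes at a mean TPM of at least 1, and 0 stood 2-fold lower, against 2.61%; over those genes 53.6% passed either way.

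The count scaling and TPM have different zero points, so a member called lower on scaled counts can have a TPM close to that of replicate 1. The median log2 ratio of (TPM + 1), replicate 2 over replicate 1, was 0.46 over the members and 0.88 over all genes at a mean TPM of at least 1, and the median log2 ratio of TMM-scaled counts was 0.09 over all tested genes. On TPM, 28 members had a ratio above 1 and 15 below it, and on TMM-scaled counts 18 were above and 25 below. All 15 members called higher lay above 1 on TPM, and all 15 called lower lay below it, and the same held with library totals and DESeq2 size factors; with the GC trend removed it held for 10 of those higher and 13 of those lower. TPM was calculated per length and is the scale used for every level below.

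The members differed between the libraries along their GC content, the share of G and C bases in the transcripts of a gene. GC content ranged from 39.4% for Rab30 to 59.0% for Rab4b, with a median of 48.4%. Of the 16 members at or above 50% GC, 15 were called higher in replicate 2, and the exception was Rab6b. Of the 14 members under 45% GC, 13 were called lower, and the exception was Rab30. Of the 13 members between these limits, 2 were called, Rab9 and Rab28, both lower. These calls use TMM-scaled counts, and with library totals 6 members were called lower, namely Rab6a, Rab18, Rab5a, Rab11a, Rab8b and Rab27b. The other members called lower, here and below, lose that call with library totals. The share of all genes called within each of these GC ranges was not counted. Over the 43 members the rank correlation (Spearman's rho) of the log2 TPM ratio with GC content was 0.93, and over 14188 genes at a mean TPM of at least 1 it was 0.89. All of these points come from the same pair of libraries. GC content was itself weighted by TPM in these libraries, so it is not independent of the ratio where the transcripts of a gene differ. Rab11b and Rab15, at 54.81% and 54.55%, had leading transcripts of 48.1% and 49.7% GC in replicate 1.

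The same trend was seen among all genes. The median log2 ratio of the 13 members from 40 to 45% GC was -0.56, against -0.31 for all genes of that class. From 50 to 55% it was 2.20 over 11 members, against 1.6 for all genes, and at 55% and above it was 4.03 over 5 members, against 3.14. Within replicate 2, TPM and GC content had a rho of 0.08 over the members, and within replicate 1 a rho of -0.58; over all genes these were 0.11 in replicate 2 and -0.58 in replicate 1. After removal of the trend of the count ratio on GC content over all genes, 2 members were called (4.65%, against 19.6% of all genes). Rab1b was called higher (10.4% of all genes were) and Rab24 lower (9.25% of all genes were).

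**Figure D2:**
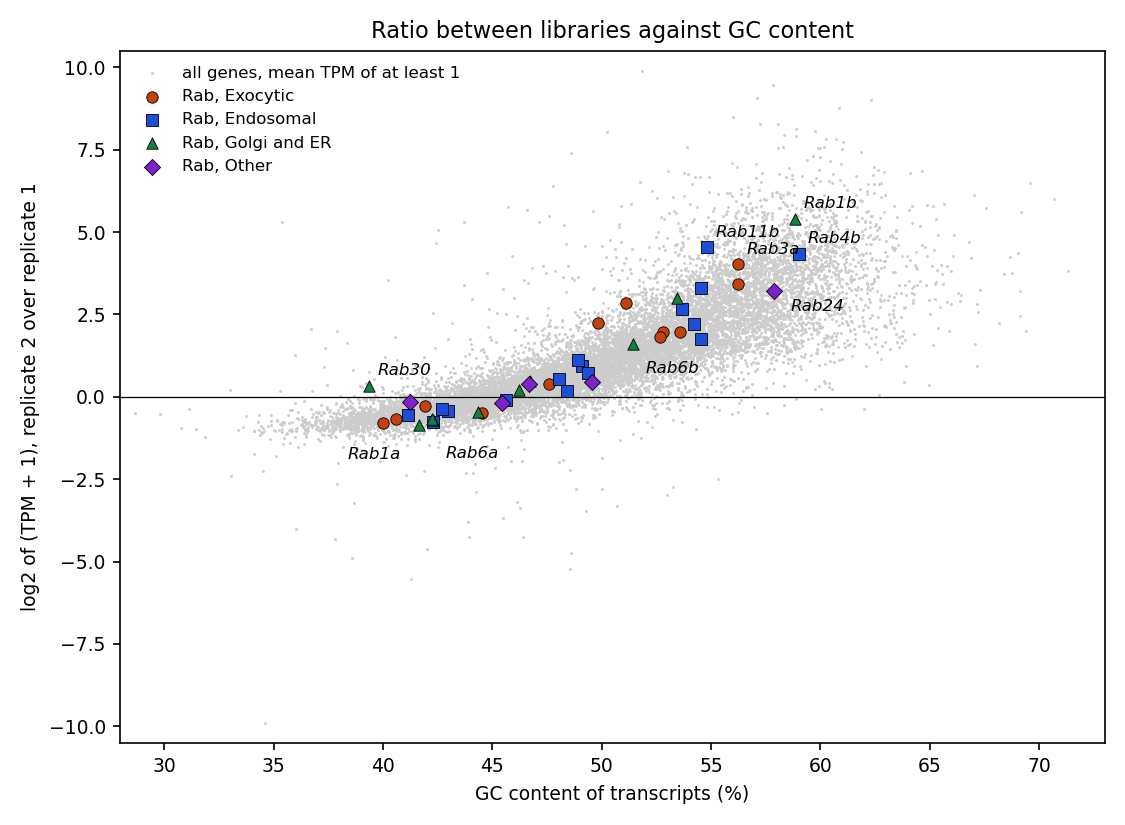
Log2 ratio of (TPM + 1) in replicate 2 over replicate 1 against GC content (%) of the transcripts, for the Rab genes (coloured by function) and all genes at a mean TPM of at least 1 (grey dots). The Rab genes follow the grey band, with a rho of 0.93 over 43 members and 0.89 over 14188 genes, and Rab30 lies above it at its low GC content.

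The difference in base composition between close relatives can be seen in their coding sequence. The stretches below cover 20 codons around the phosphate-binding loop, which grips the nucleotide, from GENCODE M21 transcripts on GRCm38, and they are shown because they encode nearly the same amino acids in pairs of paralogs that went opposite ways. Capitals mark a G or C at the third base of a codon. They begin at base 25 of the coding part in Rab1b, at base 34 in Rab1a, Rab11b and Rab11a, at base 67 in Rab3a, 91 in Rab3c, 64 in Rab5c and 61 in Rab5a. Rab1b, Rab3a, Rab11b and Rab5c were called higher in replicate 2, and Rab1a, Rab3c, Rab11a and Rab5a lower. With library totals, Rab1a and Rab3c were not called and the others kept their calls.
Rab1b: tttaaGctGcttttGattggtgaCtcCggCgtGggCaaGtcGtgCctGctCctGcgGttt
Rab1a: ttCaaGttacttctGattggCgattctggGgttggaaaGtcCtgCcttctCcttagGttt
Rab3a: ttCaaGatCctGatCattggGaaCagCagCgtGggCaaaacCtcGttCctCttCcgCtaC
Rab3c: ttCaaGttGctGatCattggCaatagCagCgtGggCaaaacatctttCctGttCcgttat
Rab11b: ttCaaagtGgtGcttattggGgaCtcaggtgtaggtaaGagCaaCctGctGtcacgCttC
Rab11a: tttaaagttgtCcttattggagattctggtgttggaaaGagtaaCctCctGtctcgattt
Rab5c: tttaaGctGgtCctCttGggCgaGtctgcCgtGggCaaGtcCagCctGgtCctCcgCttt
Rab5a: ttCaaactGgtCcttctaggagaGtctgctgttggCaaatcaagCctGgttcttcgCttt

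Rab1b and Rab1a encode the same amino acid at all 20 codons of this stretch, but 13 codons differ, all silently, and 15 codons of Rab1b end in G or C against 10 of Rab1a. Rab11b and Rab11a likewise match at all 20 amino acids with 13 silent differences, and 12 codons of Rab11b end in G or C against 5 of Rab11a. Rab5c and Rab5a match at all 20 with 11 silent differences, with 17 such codons in Rab5c and 8 in Rab5a. Rab3a and Rab3c match at 19, with 7 silent differences, and 18 codons of Rab3a end in G or C against 13 of Rab3c. Over the whole coding part the share of G or C at the third codon base was 68.7% in Rab1b and 46.3% in Rab1a, and 64.4% in Rab5c and 31.6% in Rab5a. Not every pair differed in this way, since the share was 70.9% in Rab33a, called higher, and 71.2% in Rab33b, not called.

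The exocytic members had the highest median ratio of the 4 function groups, and Rab3a had the highest level among them in replicate 2. Over the 12 exocytic genes, summed TPM was 984.9 in replicate 2 and 332.4 in replicate 1, or 24.0% of all Rab TPM in replicate 2 and 10.98% in replicate 1. Rab3a alone held 631.6 TPM of this sum in replicate 2 and 37.7 TPM in replicate 1, so the difference is mostly that of 1 gene. Of them, 6 were called higher, 4 lower and 2 neither, against 34.5% higher and 24% lower of all genes tested. With library totals 7 were higher and 2 lower, against 43.6% and 7.9% of all genes. The median log2 TPM ratio was 1.89, and the median GC content 50.5%.

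Rab3a, the main Rab of synaptic vesicles (ENSMUSG00000031840.8, chromosome 8, 70754679 to 70758677, GRCm38), had 631.6 TPM from 8137 counts in replicate 2 and 37.7 TPM from 655 counts in replicate 1. Its TPM was 16.8-fold higher in replicate 2 (95% exact counting interval 15.5 to 18.2), and it was called higher. Intervals of this kind cover counting error only. Its GC content was 56.2%, and with the GC trend removed its log2 count ratio was 0.21 and it was not called. Rab3c, a paralog on synaptic vesicles (chromosome 13, 110054187 to 110280996), had 88.1 TPM from 7936 counts in replicate 2 and 108.0 TPM from 12902 counts in replicate 1, a ratio of 0.816 (0.793 to 0.839), and was called lower on scaled counts. Replicate 2 was thus high for Rab3a and slightly low for Rab3c.

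The other Rab3 genes moved with Rab3a. Rab3b had 55.4 TPM in replicate 2 and 6.90 TPM in replicate 1 (775 and 205 counts), 8.03-fold higher (6.87 to 9.41). Rab3d had 4.50 TPM in replicate 2 and 0.42 TPM in replicate 1 (178 and 22 counts), 10.7-fold higher (6.86 to 17.5). Both were called higher, and Rab3d was the lowest of the 43 members in replicate 1.

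Rab8a, Rab8b, Rab10 and Rab13 act in transport to the plasma membrane. Rab8a had 36.2 TPM from 685 counts in replicate 2 and 6.94 TPM from 231 counts in replicate 1, a ratio of 5.21 (4.48 to 6.08), and its log2 count ratio of 0.99 fell just short of 2-fold, so it was not called. Rab8b had 20.3 TPM from 1002 counts in replicate 2 and 33.3 TPM from 2180 counts in replicate 1, a ratio of 0.610 (0.565 to 0.657), and was called lower. Rab8a has a GC content of 49.8% and Rab8b of 40.6%. Rab10 was called lower, with 71.8 TPM in replicate 2 and 102.3 TPM in replicate 1. Rab13 was called higher, with 6.23 TPM from 64 counts in replicate 2 and 0.87 TPM from 12 counts in replicate 1.

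Rab26, Rab27a, Rab27b and Rab37 are tied to secretory granules and vesicles. Rab26 was called higher, with 41.4 TPM in replicate 2 and 2.99 TPM in replicate 1, and so was Rab37, with 9.66 TPM in replicate 2 and 2.01 TPM in replicate 1. Rab27b, which helps dock secretory vesicles, had 15.6 TPM from 829 counts in replicate 2 and 28 TPM from 1826 counts in replicate 1, a ratio of 0.557 (0.512 to 0.605), and was called lower. Rab27a was low in both libraries, with 4.22 TPM in replicate 2 and 3 TPM in replicate 1, and was not called.

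The endosomal members held the largest share of Rab TPM in replicate 2. Over 16 genes the sum was 1671 TPM in replicate 2 and 1125 TPM in replicate 1, which is 40.7% of Rab TPM in replicate 2 and 37.1% in replicate 1. Of them, 6 were called higher, 5 lower and 5 neither, with a median log2 TPM ratio of 0.82 at a median GC content of 49.0%. Among all genes tested, 34.5% were called higher and 24% lower. With library totals 6 members of this group were higher and 2 lower, against 43.6% and 7.9% of all genes.

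The Rab5 proteins drive fusion of early endosomes. Rab5a (chromosome 17, 53479234 to 53507680) had 103.5 TPM from 2434 counts in replicate 2 and 177.1 TPM from 5532 counts in replicate 1, a ratio of 0.584 (0.557 to 0.613), and was called lower. Rab5b had 98.4 TPM from 3179 counts in replicate 2 and 51.2 TPM from 2193 counts in replicate 1, a ratio of 1.92 (1.82 to 2.03), and was not called. Rab5c had 120.9 TPM from 2268 counts in replicate 2 and 11.2 TPM from 280 counts in replicate 1, a ratio of 10.8 (9.49 to 12.2), and was called higher. The 3 genes were near one another in replicate 2 and far apart in replicate 1, and their ratios followed their GC contents of 42.3%, 49.1% and 54.5%.

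The Rab11 and Rab4 proteins return cargo from endosomes to the cell surface. Rab11a (chromosome 9, 64715299 to 64737758) had 172.1 TPM from 2646 counts in replicate 2 and 254.3 TPM from 5980 counts in replicate 1, a ratio of 0.677 (0.646 to 0.708), and was called lower. Rab11b (chromosome 17, 33742484 to 33760530) had 190.4 TPM from 2915 counts in replicate 2 and 7.22 TPM from 615 counts in replicate 1, a ratio of 26.4 (24.2 to 28.8), and was called higher. The ratio of Rab11b is larger in TPM than in counts, since TPM divides by length and the transcript estimated for it in replicate 1 was a longer one. On TMM-scaled counts its log2 ratio was 1.67.

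Rab4b had 77.6 TPM from 823 counts in replicate 2 and 2.87 TPM from 34 counts in replicate 1, a ratio of 27.0 (19.2 to 39.3). Its counts in replicate 1 were given to transcripts with no annotated coding part. Rab4a had 35.6 TPM from 473 counts in replicate 2 and 4.78 TPM from 85 counts in replicate 1, a ratio of 7.45 (5.90 to 9.50). Both were called higher. Rab15, found on early and recycling endosomes, was called higher with 135.1 TPM in replicate 2 and 39.1 TPM in replicate 1, as was Rab35, of the fast recycling route, with 55.1 TPM in replicate 2 and 11.2 TPM in replicate 1.

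Rab7, which acts at late endosomes and lysosomes (chromosome 6, 87999106 to 88045270), had 287.9 TPM from 5769 counts in replicate 2 and 132.2 TPM from 3571 counts in replicate 1. Its TPM ratio was 2.18 (2.09 to 2.27), its log2 ratio of scaled counts 0.12, and it was not called. Rab14, which acts between the Golgi and early endosomes (chromosome 2, 35180205 to 35201120), had 159.0 TPM from 4853 counts in replicate 2 and 213.5 TPM from 8734 counts in replicate 1, a ratio of 0.745 (0.719 to 0.771), and was called lower. Rab9, of transport from late endosomes to the Golgi, and Rab21, of integrin traffic, were called lower too, with 47.9 and 49.9 TPM in replicate 2, against 51.4 and 64.4 TPM in replicate 1. The TPM ratio of Rab9 was 0.932, with an interval of 0.842 to 1.03 that spans 1. Rab12, Rab22a and Rab31 were not called, and their TPM ratios ran from 1.14 for Rab12 to 1.67 for Rab31.

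The members of the Golgi and the endoplasmic reticulum (ER) were the only group of the 4 with a lower summed TPM in replicate 2. Over 10 genes the sum was 1310 TPM in replicate 2 and 1469 TPM in replicate 1, which is 31.9% of Rab TPM in replicate 2 and 48.5% in replicate 1. Of them, 2 were called higher, 4 lower and 4 neither, with a median log2 TPM ratio of 0.27 at a median GC content of 45.3%. Among all genes tested, 34.5% were called higher and 24% lower. With library totals 3 members of this group were higher and 2 lower, against 43.6% and 7.9% of all genes. The 4 groups came in the same order by median ratio and by median GC content, with the members outside these routes at 0.40 and 46.7%.

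Rab6a, of retrograde transport through the Golgi (ENSMUSG00000030704.10, chromosome 7, 100607410 to 100641268), had the highest mean TPM of the members. It had 343.4 TPM from 10685 counts in replicate 2 and 565.5 TPM from 22348 counts in replicate 1, a ratio of 0.607 (0.593 to 0.622), and was called lower. Its neuron-enriched paralog Rab6b (chromosome 9, 103111787 to 103185276) had 289.8 TPM from 15111 counts in replicate 2 and 94.7 TPM from 6562 counts in replicate 1, a ratio of 3.06 (2.97 to 3.15). Rab6b was not called, since its log2 ratio of scaled counts was 0.63.

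Rab1a and Rab1b move cargo from the ER to the Golgi and had the lowest and the highest log2 TPM ratio of all members. Rab1a (chromosome 11, 20201432 to 20226856) had 158.7 TPM from 3776 counts in replicate 2 and 290.6 TPM from 7319 counts in replicate 1, a ratio of 0.546 (0.525 to 0.568), and was called lower. Rab1b (chromosome 19, 5099205 to 5107072) had 109.5 TPM from 1956 counts in replicate 2 and 1.6 TPM from 38 counts in replicate 1, a ratio of 68.4 (49.7 to 97.0), and was called higher. With the GC trend removed, Rab1b kept a log2 count ratio of 1.06 and its call, and that of Rab1a was -0.09 without one.

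Rab2a, of traffic between the ER and the Golgi (chromosome 4, 8535644 to 8607778), had 210.1 TPM from 4433 counts in replicate 2 and 292.7 TPM from 8203 counts in replicate 1, a ratio of 0.718 (0.692 to 0.745), and was called lower. Rab18, of the ER and lipid droplets, had 111.9 TPM from 2511 counts in replicate 2 and 179.6 TPM from 5353 counts in replicate 1, a ratio of 0.623 (0.594 to 0.653), and was called lower. Rab33a, a Golgi Rab of high GC content (53.4%), had 33.6 TPM from 354 counts in replicate 2 and 3.35 TPM from 47 counts in replicate 1, a ratio of 10.0 (7.39 to 13.9), and was called higher. Its paralog Rab33b, at 46.2% GC, had 17.5 TPM from 563 counts in replicate 2 and 15.0 TPM from 714 counts in replicate 1, a ratio of 1.17 (1.04 to 1.31), and was not called. Rab2b, with 24.6 TPM in replicate 2 and 17.5 TPM in replicate 1, was not called either, nor was Rab30. Rab30 had the lowest GC content of the members, yet 11.01 TPM in replicate 2 and 8.52 TPM in replicate 1, from 198 and 227 counts.

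Of the 5 members outside these routes, Rab24, linked to autophagy, was called higher, with 35.7 TPM in replicate 2 and 2.94 TPM in replicate 1, and its log2 count ratio was -1.01 with the GC trend removed. Rab28, which has a part in photoreceptor cilia, was called lower, with 59.3 TPM in replicate 2 and 67.9 TPM in replicate 1. Rab39 was the lowest member in replicate 2, with 1.26 TPM from 38 counts, against 1.52 TPM from 61 counts in replicate 1, and it was called lower. Its TPM ratio was 0.829, with an interval of 0.538 to 1.26 that spans 1. Rab23, a negative regulator of hedgehog signalling, and Rab40b, which carries a box for ubiquitin ligase assembly, were not called, with 18.4 and 22.4 TPM in replicate 2, against 13.7 and 16.01 TPM in replicate 1.

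The leading paralog differed between the libraries in 6 of 11 subfamilies. In the Rab3 subfamily, Rab3a stood 7.17-fold above Rab3c in TPM in replicate 2, and Rab3c stood 2.86-fold above Rab3a in replicate 1. Rab5c led Rab5a by 1.17-fold in replicate 2, and Rab5a led Rab5b by 3.46-fold in replicate 1. Rab8a led Rab8b by 1.78-fold in replicate 2, and Rab8b led Rab8a by 4.79-fold in replicate 1. In all 3 the bounds of the leading gene and of the next one did not overlap in either library. The lead of Rab8a in replicate 2 depended on Rab8a-202, a transcript of 542 bases with no annotated coding part. It held 62.8% of the gene's TPM there. The coding transcript Rab8a-201 had 12.6 TPM in replicate 2, against 20.3 TPM for Rab8b, and Rab8a had 685 counts against 1002.

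The Rab33 subfamily did likewise, with Rab33a 1.92-fold above Rab33b in replicate 2 and Rab33b 4.48-fold above Rab33a in replicate 1. Rab11b led Rab11a by 1.11-fold in replicate 2, where the bounds overlapped, and Rab11a led Rab11b by 35.2-fold in replicate 1. Rab4b led Rab4a by 2.18-fold in replicate 2, and Rab4a led Rab4b by 1.67-fold in replicate 1, where the bounds overlapped. The coding transcript Rab4b-201 held 87.8% of the gene's TPM in replicate 2 and 0% in replicate 1. There Rab4b-207, with no annotated coding part, held 91.8%. The subfamilies whose leader differed thus include those of the synaptic vesicle (Rab3), the early endosome (Rab5) and the recycling endosome (Rab4 and Rab11).

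In 5 subfamilies the same gene led in both libraries, but the margin differed. Rab1a stood 1.45-fold above Rab1b in replicate 2 and 181.6-fold above it in replicate 1. Rab6a stood 1.19-fold above Rab6b in replicate 2 and 5.97-fold above it in replicate 1. Rab2a led Rab2b by 8.55-fold in replicate 2 and by 16.7-fold in replicate 1, and Rab27b led Rab27a by 3.69-fold in replicate 2 and by 9.33-fold in replicate 1. Rab31 led Rab22a by 3.84-fold in replicate 2 and by 3.48-fold in replicate 1, close to each other. In 11 of 11 subfamilies the member of highest GC content took a larger share of the subfamily's TPM in replicate 2, as with Rab1b, at 40.8% in replicate 2 and 0.548% in replicate 1.

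**Figure D3:**
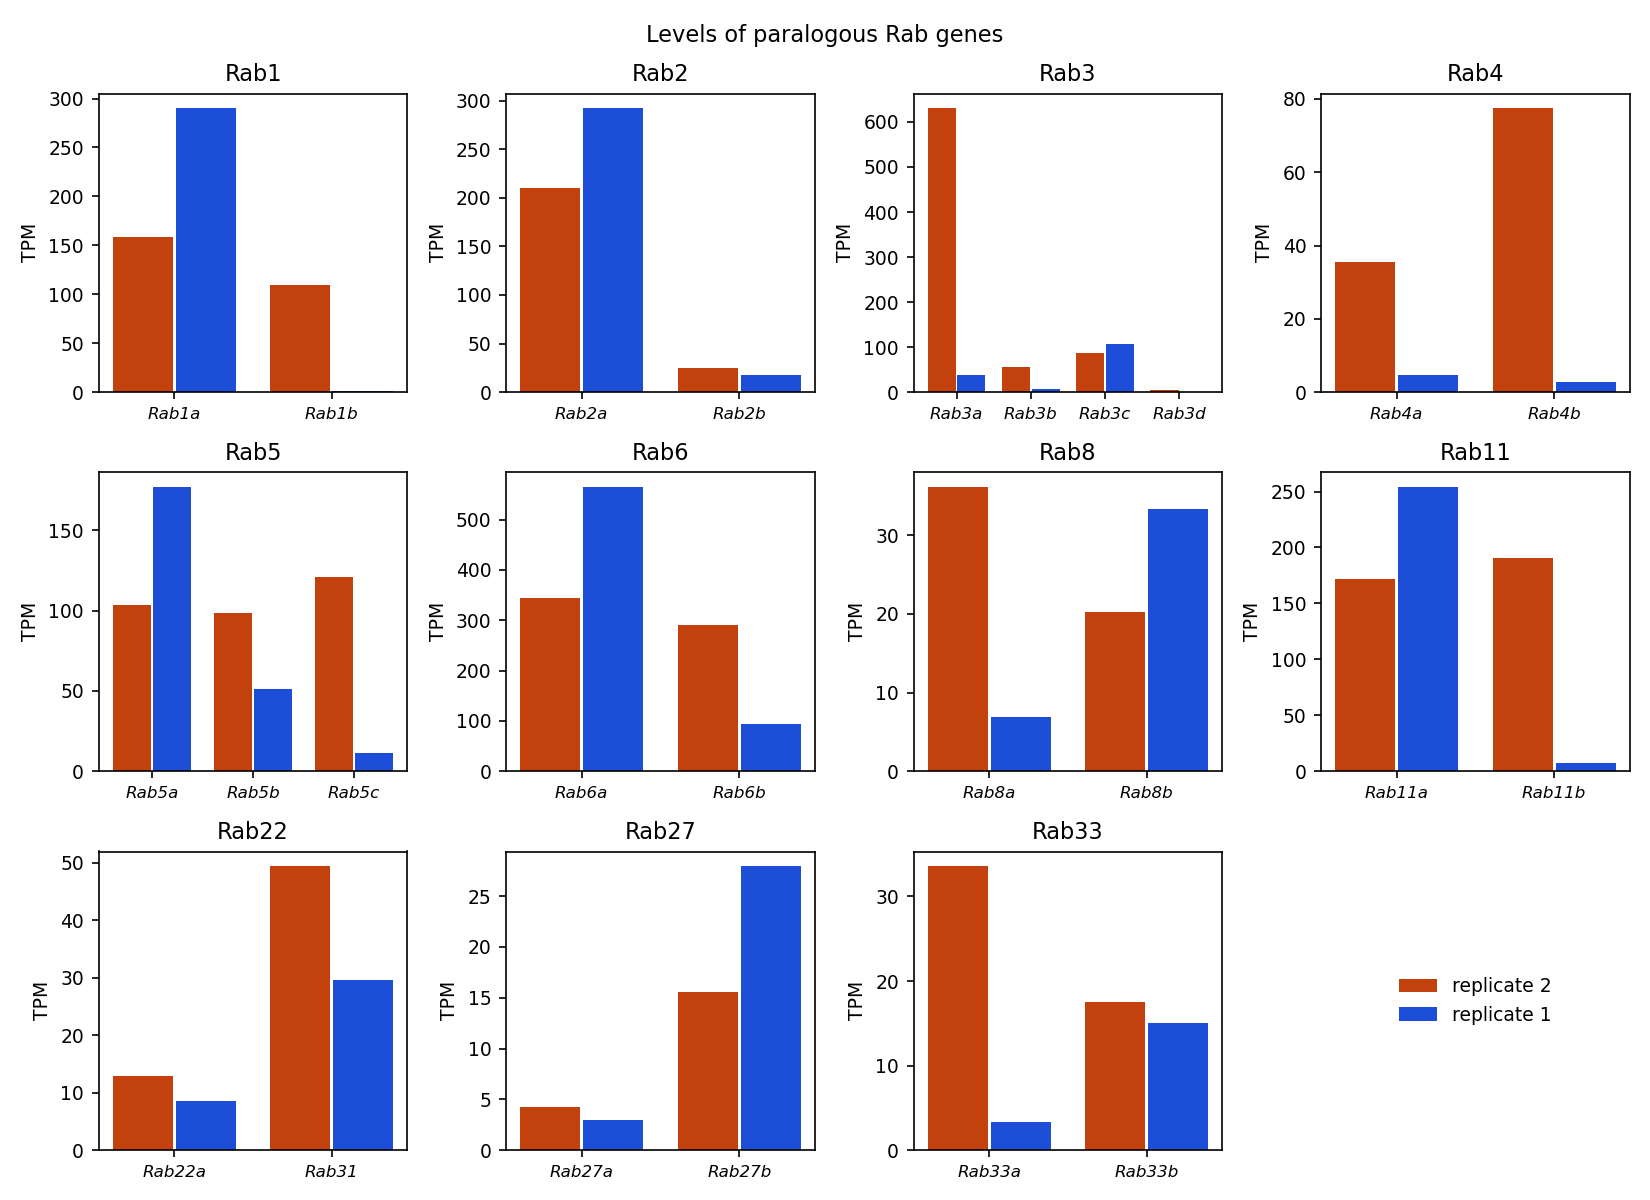
TPM of the members of 11 Rab subfamilies, in replicate 2 (left bar of each pair) and replicate 1 (right bar), each panel on its own axis from 0. The highest bar changes gene between the libraries in the Rab3, Rab4, Rab5, Rab8, Rab11 and Rab33 panels, and Rab1b is barely visible in replicate 1.

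The transcript estimated to lead a gene also differed for some members. Of the 43 genes, 14 have 1 transcript in the tables, and 35 had the same leading transcript in both libraries. Of the 27 members at 10 TPM or more in both, 5 had different leading transcripts, namely Rab7, Rab1a, Rab15, Rab23 and Rab27b. For Rab7, transcript Rab7-205 accounted for 84.9% of its TPM in replicate 2 and 26.6% in replicate 1, and Rab7-204 for 0% in replicate 2 and 72.0% in replicate 1. These Rab7 transcripts have a coding part of the same length, 621 bases.

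For Rab1a, Rab1a-201 accounted for 72.8% in replicate 2 and 0% in replicate 1, and Rab1a-206 for 0% in replicate 2 and 50.7% in replicate 1, with coding parts of 606 and 615 bases. For Rab15, Rab15-201 accounted for 92.5% in replicate 2 and 49.9% in replicate 1, and a short transcript of 477 bases for 3.59% in replicate 2 and 50.1% in replicate 1. For Rab27b, Rab27b-203 accounted for 57.2% in replicate 2 and 48.6% in replicate 1, and Rab27b-201 for 39.3% in replicate 2 and 51.4% in replicate 1. For Rab23, Rab23-201 accounted for 42.7% in replicate 2 and 18.9% in replicate 1, and Rab23-203 for 12.2% in replicate 2 and 41.6% in replicate 1. These shares are estimates of how reads divide among overlapping transcripts of 1 gene. In replicate 1 the TPM bounds of the leading and the next transcript overlapped for Rab1a, Rab15, Rab23 and Rab27b. They overlapped in replicate 2 for Rab23. For Rab7 they overlapped in neither library.

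Rab11b was added to these after its values were seen. Its transcript Rab11b-203, of 1544 bases, accounted for 65.7% of its TPM in replicate 2 and 0% in replicate 1, and Rab11b-201, of 6109 bases, for 5.17% in replicate 2 and 100% in replicate 1. The counts given to Rab11b-201, before any scaling, were 631.7 in replicate 2 and 615 in replicate 1. Its TPM was 9.84 in replicate 2 and 7.22 in replicate 1.

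**Figure D4:**
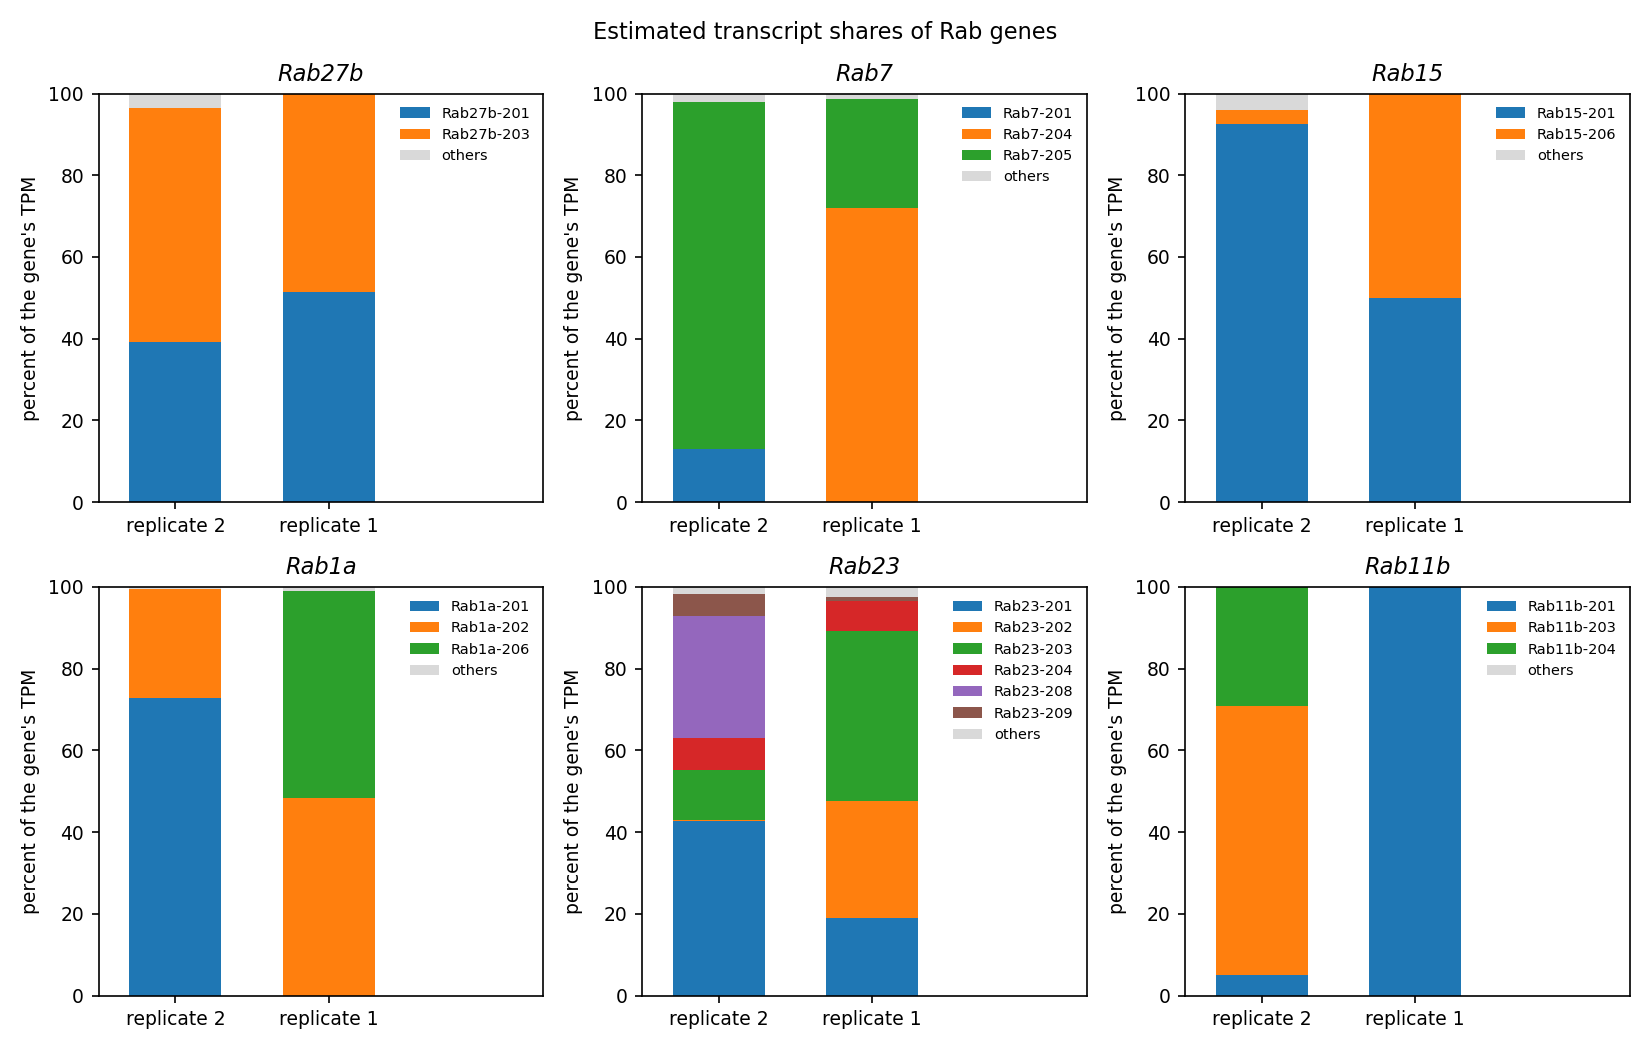
Percent of each gene's TPM held by its transcripts, in replicate 2 (left bar) and replicate 1 (right bar), for the 5 members at 10 TPM or more in both libraries whose leading transcript differs, and for Rab11b. The leading colour changes in each panel, as for Rab7, with Rab7-205 in replicate 2 and Rab7-204 in replicate 1.

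The genes that load, unload and carry Rab proteins were called in both directions, and their counts stand against 34.5% higher and 24% lower of all genes tested, or 43.6% and 7.9% with library totals. With the GC trend removed, 10.4% of all genes were called higher and 9.25% lower. Of the 8 genes of prenylation and GDI function, 2 were called higher, 3 lower and 3 neither, with a median log2 TPM ratio of 0.46. Scaled by library totals, 3 were higher and 2 lower. Gdi2, a GDI, had 182.3 TPM in replicate 2 and 275.6 TPM in replicate 1 and was called lower. Chm, a Rab escort protein, had 27.3 TPM in replicate 2 and 68.0 TPM in replicate 1 and was called lower, with the lowest log2 ratio of (TPM + 1) of its list at -1.29.

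Rabac1, a prenylated Rab acceptor, had 189.3 TPM from 1412 counts in replicate 2 and 0 counts in replicate 1. Against the 3 counts that a count of 0 allows in replicate 1, it was at least 628-fold higher in replicate 2. It was also called higher with the GC trend removed, as was Rabggta, a subunit of the prenylating enzyme, named after its values were seen, with 29.2 TPM in replicate 2 and 0.56 TPM in replicate 1.

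Of the 22 GEFs, 8 were called higher, 6 lower and 8 neither, with a median log2 TPM ratio of 1.00. Scaled by library totals, 9 were called higher and 0 lower. Madd, which activates Rab3 proteins, was called higher, with 73.5 TPM in replicate 2 and 7.51 TPM in replicate 1. Dennd5a and Gapvd1 were not called, with 111.8 and 41.0 TPM in replicate 2, against 55.8 and 34.1 TPM in replicate 1. Mon1a, part of the Rab7 activator, had the highest log2 ratio of (TPM + 1) of its list, at 3.76, from 281 counts in replicate 2 and 2 in replicate 1. The lowest was that of Dennd6a, called lower, with 7.20 TPM in replicate 2 and 10.6 TPM in replicate 1. After removal of the GC trend, 3 GEFs were called higher, Madd and Mon1a among them, and 1 lower.

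Of the 22 GAPs, 9 were called higher, 3 lower and 10 neither, with a median log2 TPM ratio of 1.14. Library totals gave 11 higher and 1 lower. Rabgap1l had 58.2 TPM in replicate 2 and 81.2 TPM in replicate 1, and Evi5 had 36.97 TPM in replicate 2 and 56.8 TPM in replicate 1, and both were called lower. Rab3gap1, the catalytic subunit of the Rab3 GAP, was not called, with 36.3 TPM in replicate 2 and 30.01 TPM in replicate 1. Tbc1d17 had the highest log2 ratio of (TPM + 1) of the list, at 4.22, and was called higher, with 30.4 TPM from 640 counts in replicate 2 and 0.69 TPM from 8 counts in replicate 1. After removal of the GC trend, 2 GAPs were called higher, Tbc1d17 among them, and 0 lower.

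Of the 35 effectors, 10 were called higher, 8 lower and 17 neither, with a median log2 TPM ratio of 0.62. With library totals the balance was different, at 17 higher and 2 lower. Rph3a, the Rab3 effector rabphilin, was called higher, with 161.3 TPM in replicate 2 and 37.4 TPM in replicate 1. With the GC trend removed its call was reversed to lower, at a log2 count ratio of -1.53. On that scale 4 effectors were called lower, Rph3a among them, and 0 higher. The active zone scaffold Rims1, another Rab3 effector, was not called, with 80.5 TPM in replicate 2 and 86.5 TPM in replicate 1, nor was the Rab7 effector Osbpl1a, with 256.0 TPM in replicate 2 and 222.1 TPM in replicate 1. Rab11fip5, a Rab11 effector, had the highest log2 ratio of (TPM + 1) of the list, at 3.42, and was called higher, with 35.6 TPM in replicate 2 and 2.43 TPM in replicate 1. Lrrk2, a kinase of Rab proteins, had the lowest such log2 ratio, at -0.94, and was not called on counts, with 23.6 TPM in replicate 2 and 46.1 TPM in replicate 1.

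Of 16 further Rab genes outside the 43, 11 had enough counts to be tested, and 7 of these were called higher, 2 lower and 2 neither, and with library totals also 7 higher and 2 lower. Rab39b and Rab9b were called lower, with 31.1 and 17.1 TPM in replicate 2, against 49.5 and 27.3 TPM in replicate 1. Rab40c was called higher, with 27.9 TPM in replicate 2 and 1.36 TPM in replicate 1. Rab17 had 0 counts in both libraries. The median log2 TPM ratio of the 16 was 0.23, with 5 genes too low to test, and 2.26 over the 12 genes with more than 3 counts when a library at 0 was set to the 3 counts that a 0 allows.

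**Figure D5:**
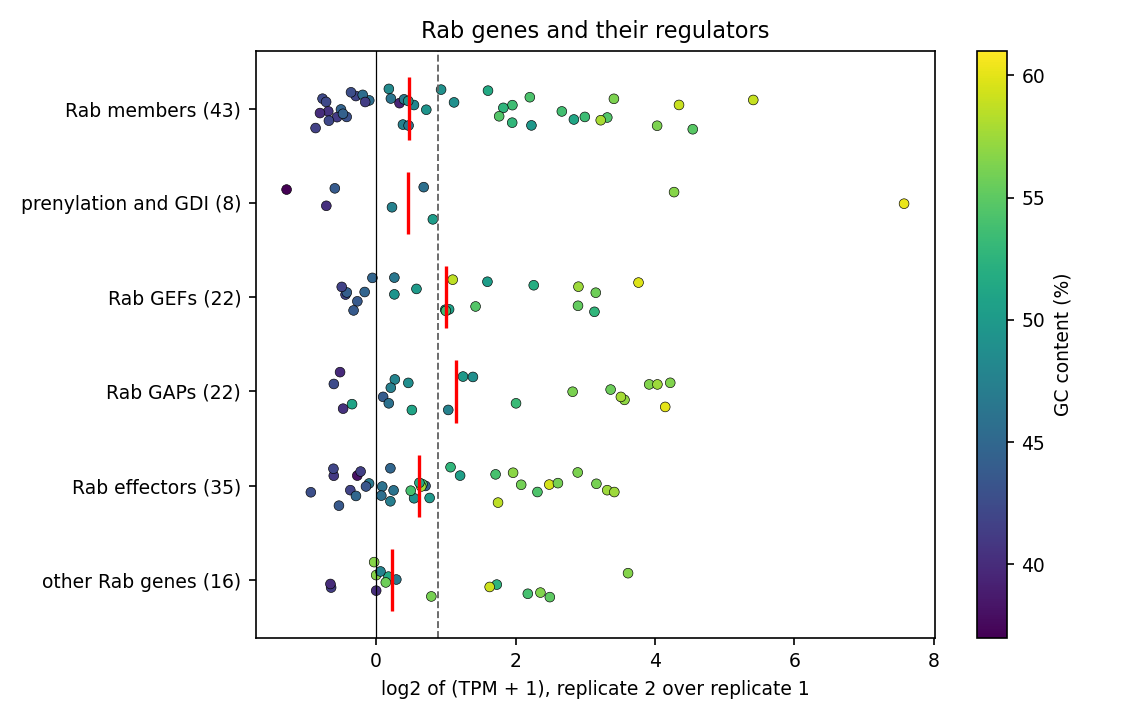
Log2 ratio of (TPM + 1) in replicate 2 over replicate 1 for the Rab members and the lists of related genes, with the number of genes in brackets; points are genes coloured by GC content (%), their height within a row is set at random for legibility, the red line is the list's median and the dashed line the median of all genes at a mean TPM of at least 1. In the row of Rab members the GC-rich genes lie to the right, and the medians run from 0.23 for further Rab genes to 1.14 for GAPs.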

How the data were processed

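Gene and transcript tables came with each library. Expected counts, which are estimates, were deposited by the authors, and they were exactly whole as deposited, with no tolerance, in both libraries for 40 of 43 members. TPM and FPKM were deposited by the authors per gene and transcript. The authors' deposited transcript tables give the percent of a gene's TPM for each transcript, and there are also posterior means and bounds of TPM. Tables are on mm10 with annotation M4, per the deposited listings. The quantifier, the aligner, their versions and any use of strand in counting were not given in the sources used here. Exons of 16 members overlap another gene, 12 of them on the opposite strand. Whether the libraries share an RNA extract was likewise not stated.

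Symbols, positions and sequences came from GENCODE M21 on GRCm38, matched by identifier without version, and 153 of 153 member transcripts matched, 138 with the same length. GC content is the mean, weighted by TPM in both libraries, over a gene's transcripts. Rows other than Ensembl genes held 1 count in replicate 2 and 0 in replicate 1 and were left out. Expected counts were rounded and compared by a two-sided exact binomial test using TMM sizes (edgeR 4.0.16, R 4.3.3), over genes whose counts summed to 10 or more, adding 0.5 to each count for the fold. Neither edgeR's quasi-likelihood test nor that of DESeq2 could be fitted with 1 library a side. Log2 ratios are of (TPM + 1), which understates low genes. Intervals are exact Clopper-Pearson, 95%. The GC trend is a lowess fit with a fraction of 0.2 (statsmodels 0.14.6), and DESeq2 1.42.0 gave size factors. Other steps used Python 3.11.15, pandas 2.3.3 and scipy 1.17.1, and the test was checked on simulated data. The simulated counts had counting error only and no GC trend, so that check does not bear on the calls in these libraries.

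The rule for the members reads identifiers only, but it, the groups and the lists were chosen with earlier results of these data known. The named genes were taken by rule: members with full values are the 12 of highest mean TPM, those of subfamilies whose leader differs, and the 3 highest and 3 lowest log2 ratios; of each related list, the 3 of highest mean TPM and the highest and lowest log2 ratio, except a gene that is not reported here. Alternatives were library totals, DESeq2 size factors, no count minimum, posterior means, other pseudocounts and thresholds, FPKM, removal of the GC trend and each library alone.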

Additional observations from a re-analysis of the deposited data

How the results depend on the processing

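The 15 members called higher numbered 15 to 18 with library totals, DESeq2 size factors, no count minimum, posterior mean counts and a TPM ratio of at least 2, and 1 with the GC trend removed. The 15 called lower were 15 with DESeq2 size factors, no count minimum and posterior mean counts, 6 with library totals, 0 by a TPM ratio of at least 2, and 1 with the GC trend removed, which was not among the 15. The median log2 ratio of 0.46 was -0.34 on TMM-scaled CPM, where all genes had 0.09, and 0.054 with the GC trend removed. A TPM of at least 1 in both libraries was held by 41 members, and by 43 without replicate 1 and 41 without replicate 2. The same paralog led 5 subfamilies by TPM, FPKM and posterior mean TPM, and 6 by counts not divided by length. No paired analysis was possible because there is 1 group, with 1 library on each side. Each side holds 1 library, so these differences have no replicate check. Depth limits Rab1b, Rab4b, Rab3d and Rab13, with 38, 34, 22 and 12 counts in replicate 1.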
